A study of Mus musculus with 13 samples.

Results

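Matrix metalloproteinases and their tissue inhibitors were followed in mouse embryonic fibroblasts (MEFs) across a hairpin against Setdb1 and treatment with 5-azacytidine (5-aza). The 10 genes were taken by name from the 25965 gene intervals of the expression table: the metalloproteinases Mmp2, Mmp3, Mmp9, Mmp10, Mmp11, Mmp13 and Mmp14 and the inhibitors Timp1, Timp2 and Timp3. All 10 were found, each with 1 interval.

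Poly(A) RNA was sequenced from primary female MEFs of E13.5 embryos that carried an X chromosome with the Xist∆A allele and a PGK X chromosome, an arrangement that every group shared. Cells were transduced with a retroviral hairpin, selected with puromycin after 24 h, cultured with or without 5-aza for 24 h from day 3, and harvested on day 7. The 4 groups of 3 libraries combined either a control or a Setdb1 hairpin with no drug or with 5-aza. Setdb1 is a methyltransferase for lysine 9 of histone H3, and 5-aza is an inhibitor of DNA methyltransferases. Replicates A and B carried a non-silencing hairpin in the control groups and shSetdb1.4 in the Setdb1 groups, and replicate 1 carried a hairpin against luciferase or shSetdb1.6. According to the study, cells that received Setdb1 hairpins were heterozygous for a Setdb1 gene trap and non-silencing cells were wild type. For luciferase cells no genotype is given in the sources used here. The labels name no genotype or embryo for a library, so hairpin, genotype and embryo cannot be told apart.

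Matrix metalloproteinases are zinc enzymes that cut collagens, proteoglycans and other proteins of the extracellular matrix, and most are secreted as inactive proenzymes. The gelatinases Mmp2 and Mmp9 cut denatured collagen, the collagenase Mmp13 cuts fibrillar collagen, the stromelysins Mmp3 and Mmp10 have broad substrates, and Mmp11 carries a site through which furin activates it inside the cell. Mmp14 sits in the plasma membrane and activates pro-Mmp2 with Timp2 as an adaptor. The Timps bind the active sites of these enzymes. Fibroblasts are a main source of both, and the inducible genes Mmp3, Mmp9, Mmp10 and Mmp13 are known to respond to AP-1 factors.

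Mmp13, Mmp3 and Mmp10 lie in 1 cluster on chromosome 9 and had the only promoters of the 8 found in which AP-1 and TATA motifs occurred, so their 250 bases before the start are shown. The RefSeq promoter table (GRCm38.p6) held 8 of the 10 genes and lacked Mmp2 and Mmp9. All 3 sequences are from the plus strand, 5′ to 3′, and the capitals mark the AP-1 motif TGANTCA and the TATA motif TATAAA. They span chr9:7272264-7272513 (Mmp13), chr9:7445572-7445821 (Mmp3) and chr9:7502092-7502341 (Mmp10).
Mmp13: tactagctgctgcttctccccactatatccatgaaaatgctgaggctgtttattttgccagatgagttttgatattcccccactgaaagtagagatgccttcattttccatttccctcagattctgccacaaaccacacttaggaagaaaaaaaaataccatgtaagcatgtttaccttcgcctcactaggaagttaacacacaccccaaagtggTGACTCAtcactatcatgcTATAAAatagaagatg
Mmp3: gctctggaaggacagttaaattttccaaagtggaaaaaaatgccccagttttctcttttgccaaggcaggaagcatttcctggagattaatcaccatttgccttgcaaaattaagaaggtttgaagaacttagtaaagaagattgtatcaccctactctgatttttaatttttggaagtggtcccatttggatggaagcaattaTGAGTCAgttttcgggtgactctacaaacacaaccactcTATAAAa
Mmp10: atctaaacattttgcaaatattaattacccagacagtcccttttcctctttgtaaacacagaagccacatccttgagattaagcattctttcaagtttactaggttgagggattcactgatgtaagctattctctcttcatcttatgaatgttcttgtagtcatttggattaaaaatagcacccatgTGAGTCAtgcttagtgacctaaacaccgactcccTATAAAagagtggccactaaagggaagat
The first base of the AP-1 motif lay 35 bases before the start in Mmp13, 46 in Mmp3 and 63 in Mmp10. AP-1 (both strands) was found in 3 of the 8 promoters of these genes and in 6.75% of all 32851 promoters of the table. TATAAA (coding strand) was found in the same 3 and in 7.59% of all. The ETS motif AGGAAG (both strands) overlapped neither and was found in 5 of the 8, those of Mmp13, Mmp3, Timp3, Mmp14 and Timp1, and in 29.5% of all. The promoters of Mmp13, Mmp3 and Mmp10 held 1 CpG each, against a median of 6 over all promoters. Timp2 held 21, Timp3 18, Mmp11 14, Mmp14 10 and Timp1 6 CpG. A motif match describes these letters only.

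Between 36.4 and 51.3 M reads fell in genes in each of the 12 libraries of the 4 groups. Levels are in RPM, reads scaled to a common library total, and 1 read was worth 0.017 to 0.0239 RPM. Intervals and limits given from reads cover counting error only. Setdb1, the target of the hairpin (ENSMUSG00000015697), was at 46.25 ± 0.103 RPM with control and 14.1 ± 1.72 RPM with Setdb1 hairpins, and with 5-aza at 43.4 ± 0.631 and 12.9 ± 2.16 RPM (SD, n = 3 in each group). Control and Setdb1 hairpin libraries did not overlap, with or without 5-aza. The defining fibroblast markers were high in every library, where 9 genes including Col1a1, Pdgfra and Vim summed to 22528 to 34532 RPM. In bulk RNA, fewer cells of a type and less RNA per cell cannot be told apart.

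The inhibitors were the most abundant of the 10 genes for their length. Levels between genes were compared as RPM per kilobase of exon, as the median over the 12 libraries with the lowest and highest library. Timp2 came first at 470.5 (356 to 591), followed by Timp1 at 337 (261 to 393). Timp3 was at 146 (105 to 194) and Mmp14, the most abundant protease, at 104 (83.9 to 110.2). Mmp2 at 41.5 (34.4 to 58.4) and Mmp11 at 15.9 (13.3 to 18.8) followed, each apart from its neighbours among the 10 in every library. Mmp13, Mmp10, Mmp9 and Mmp3 had medians of 0.524, 0.467, 0.463 and 0.224 per kilobase, and their ranges overlapped, as did those of Timp2 with Timp1 and of Timp3 with Mmp14.

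**Figure D1:**
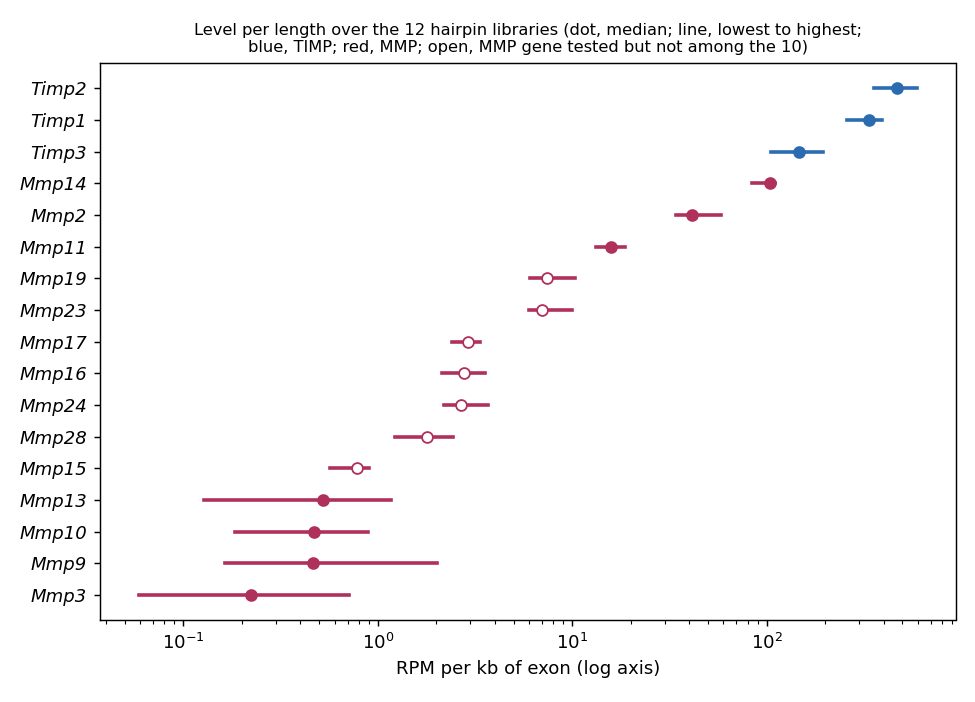
Level of each gene in RPM per kilobase of exon on a log axis, with the median of the 12 hairpin libraries as a dot and the lowest to highest library as a line. The Timps (blue) lie above every metalloproteinase at the median, and Mmp13, Mmp10, Mmp9 and Mmp3 lie lowest. Open dots are the 7 other metalloproteinase genes that were tested.

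The genes at the bottom of this order also varied most. The standard deviation of log2 RPM over the 12 libraries was 1.10 for Mmp9, 0.94 for Mmp13 and 0.66 for Mmp10, above that of 99.6%, 99.4% and 97.9% of all tested genes. It was between 0.15 and 0.28 for the other 6 tested genes, where the median over all tested genes was 0.13. Lower counts carry more counting error, and Mmp9, Mmp13 and Mmp10 rested on 15 to 338 reads in a library.

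Changes were tested with limma on log2 RPM over 13134 genes that reached 1 RPM in at least 3 of the 12 libraries, and genes with a Benjamini-Hochberg adjusted p under 0.05 are called rising or falling. Of the 10 genes, 9 passed this filter. Mmp3 reached 1 RPM in 2 libraries, both with 5-aza, and was not tested. Mmp10 passed only through 4 libraries with 5-aza, and Mmp13 through 5 with and 2 without it, so a count over the genes that passed is not independent of 5-aza. The hairpin contrasts and the 5-aza contrasts share libraries.

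With Setdb1 hairpins and no 5-aza, 0 of the 9 genes rose and 2 fell (Mmp11 and Timp3). Over all tested genes 9.01% rose and 3.4% fell, 12.4% in either direction. In the presence of 5-aza, 0 rose and the same 2 genes fell, where 14.5% of all tested genes rose and 5.37% fell, 19.9% in all. With 5-aza in control hairpin cells, 3 rose (Mmp10, Timp1 and Timp2) and 0 fell, against 13.47% and 5.34% of all tested genes, 18.8% in all. With 5-aza in Setdb1 hairpin cells, 1 rose (Timp2) and 2 fell (Mmp9 and Mmp14), against 21.4% and 7.51%, 28.9% in all. The median log2 fold change of the 9 genes was 0.06, -0.15, 0.23 and 0.08 in these 4 contrasts, and that of all tested genes 0.03, 0.05, 0.04 and 0.06. None of the 9 passed the test of the interaction, the difference between the 5-aza responses with the 2 kinds of hairpin, in which 0.388% of all tested genes were called. In limma 0 of these 9 genes had an unadjusted p under 0.05 for the interaction. At that level 2 were higher and 3 lower with Setdb1 hairpins alone, 0 and 3 with both treated, 3 and 2 with 5-aza in control cells, and 2 and 2 with 5-aza in Setdb1 hairpin cells. A voom fit on reads recovered from the RPM steps called the same numbers in each direction as the main test, 0 for the interaction. With each library centred on its median gene, 48.0%, 48.7%, 49.0% and 52.3% of all called genes were higher in the 4 contrasts, in place of 72.6%, 73.0%, 71.6% and 74.0%.

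**Figure D2:**
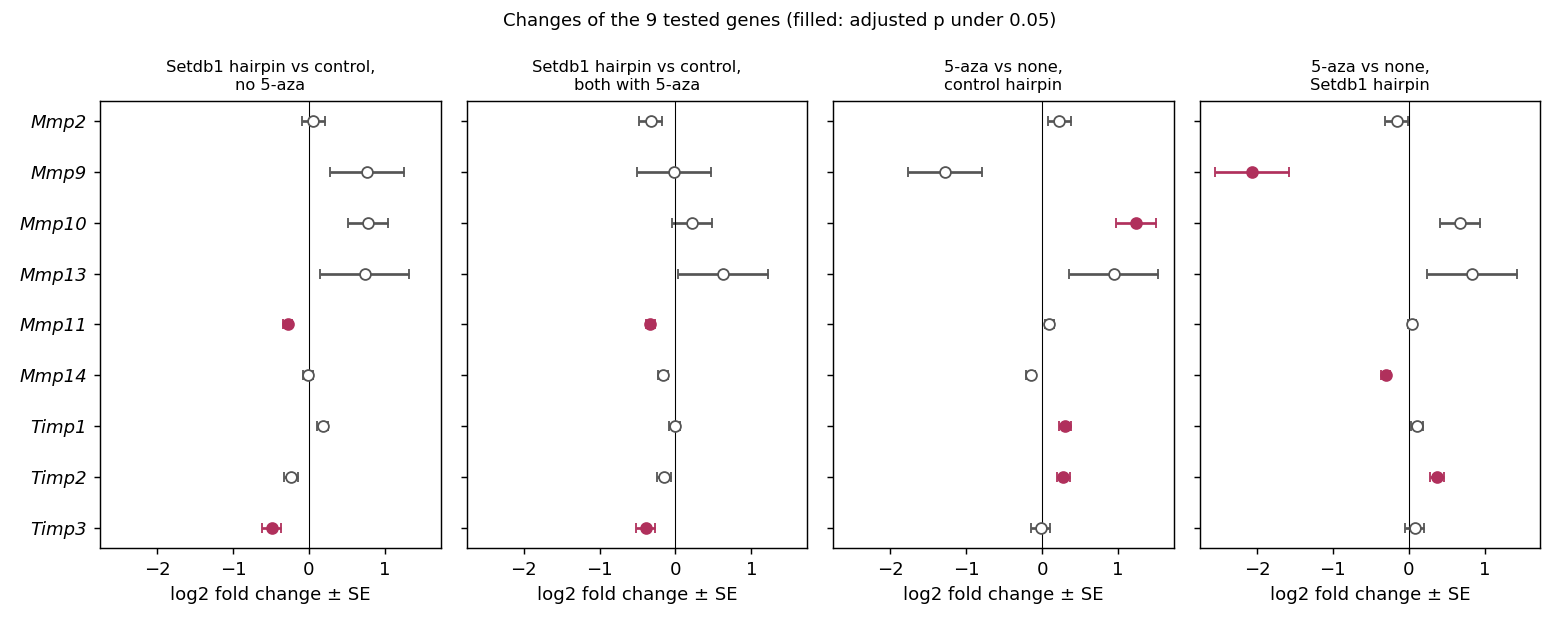
Log2 fold change of the 9 tested genes in each of 4 contrasts, with the standard error of the limma fit as bars and filled dots where the adjusted p was under 0.05. Mmp11 and Timp3 are filled on the left of 0 in both hairpin contrasts, Timp2 is filled on the right in both 5-aza contrasts, and Mmp9, Mmp10 and Mmp13 carry the widest bars.

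Mmp9, the gelatinase of inflammatory and remodelling tissue (ENSMUSG00000017737, GRCm38 chromosome 2, 164940780 to 164955850), fell with 5-aza in Setdb1 hairpin cells. In replicates 1, A and B it was at 4.29, 7.11 and 3.42 RPM with Setdb1 hairpins and at 0.959, 1.34 and 1.11 RPM with Setdb1 hairpins and 5-aza. Every library with 5-aza was below every library without it, and the log2 fold change was -2.06 ± 0.49 (SE, limma adjusted p = 0.00978). In control hairpin cells it was at 1.30, 3.62 and 4.51 RPM without and 0.580, 1.94 and 1.32 RPM with 5-aza. Those groups overlapped, as the luciferase replicate without 5-aza lay at the level of the treated libraries, and the log2 fold change of -1.28 ± 0.49 was not called (limma adjusted p = 0.0872). Without that library it was -1.82 (limma adjusted p = 0.0165), and without replicate A of the control cells with 5-aza -1.66 (limma adjusted p = 0.0422). Of 22 alternative fits, 18 left this change uncalled. Over all 22 it ran from -1.82 to -0.79, with a limma adjusted p of up to 0.291. Within each hairpin and replicate label, Mmp9 was lower with 5-aza in 6 of 6 pairs, by 0.90 to 2.41 on the log2 scale. The difference between the responses in the 2 hairpin backgrounds was -0.78 ± 0.69 (limma adjusted p = 0.796). Setdb1 and control hairpin cells overlapped with and without 5-aza.

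Mmp9 is also a product of macrophages and endothelial cells, and markers of both are given beside it. The 9 macrophage markers summed to 10.8 to 11.8 RPM in the 6 libraries without and 14.1 to 16.3 RPM in the 6 with 5-aza. Of these markers, 3 passed the filter and Csf1r rose with 5-aza in both backgrounds, by 0.27 and 0.29 on the log2 scale. Itgam rose with 5-aza only in control cells (1.66 ± 0.23, limma adjusted p = 0.000621), and Cd68 only in Setdb1 hairpin cells (0.52 ± 0.16, limma adjusted p = 0.0281). For Itgam the difference between the 2 responses was called (-1.76 ± 0.32, limma adjusted p = 0.0392). Its mean in control cells given 5-aza was 1.24 ± 0.0798 RPM, above the 1 RPM of the filter. Untreated control cells had a mean of 0.399 ± 0.106 RPM, and Setdb1 hairpin cells given 5-aza one of 0.479 ± 0.110 RPM. The passing of the filter by Itgam was therefore not independent of its rise or of this difference. Emr1 and Tyrobp had 3 reads or fewer in each library of 3 of the groups, and Mmp12, the macrophage elastase, was at 0.388 RPM or less in every library. The 6 endothelial markers summed to 7.05 to 8.20 RPM with control and 6.21 to 6.68 RPM with Setdb1 hairpins, and with 5-aza to 4.22 to 6.28 and 4.44 to 5.97 RPM. Of these, 3 passed the filter, and Emcn, endomucin, fell with 5-aza in control (log2 fold change -1.09 ± 0.17, limma adjusted p = 0.00159) and in Setdb1 hairpin cells (-1.52 ± 0.17, limma adjusted p = 0.00024). Tie1 had 3 reads or fewer in each library. The part of either cell type in the Mmp9 values was not tested.

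Mmp2, the gelatinase that fibroblasts make constitutively (ENSMUSG00000031740, chromosome 8, 92827328 to 92853417), was called in no contrast. It was at 118.6, 145.2 and 147.6 RPM in replicates 1, A and B of the control hairpin cells and at 130.1, 197 and 159.5 RPM with 5-aza. With Setdb1 hairpins it was at 134.9, 165.8 and 127.9 RPM, and with 5-aza in addition at 116, 150.5 and 118.4 RPM. The 4 groups overlapped. Each of the 3 control pairs was higher with 5-aza and each of the 3 Setdb1 pairs lower. The difference between the 2 responses was -0.38 ± 0.22 on the log2 scale (limma adjusted p = 0.794).

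**Figure D3:**
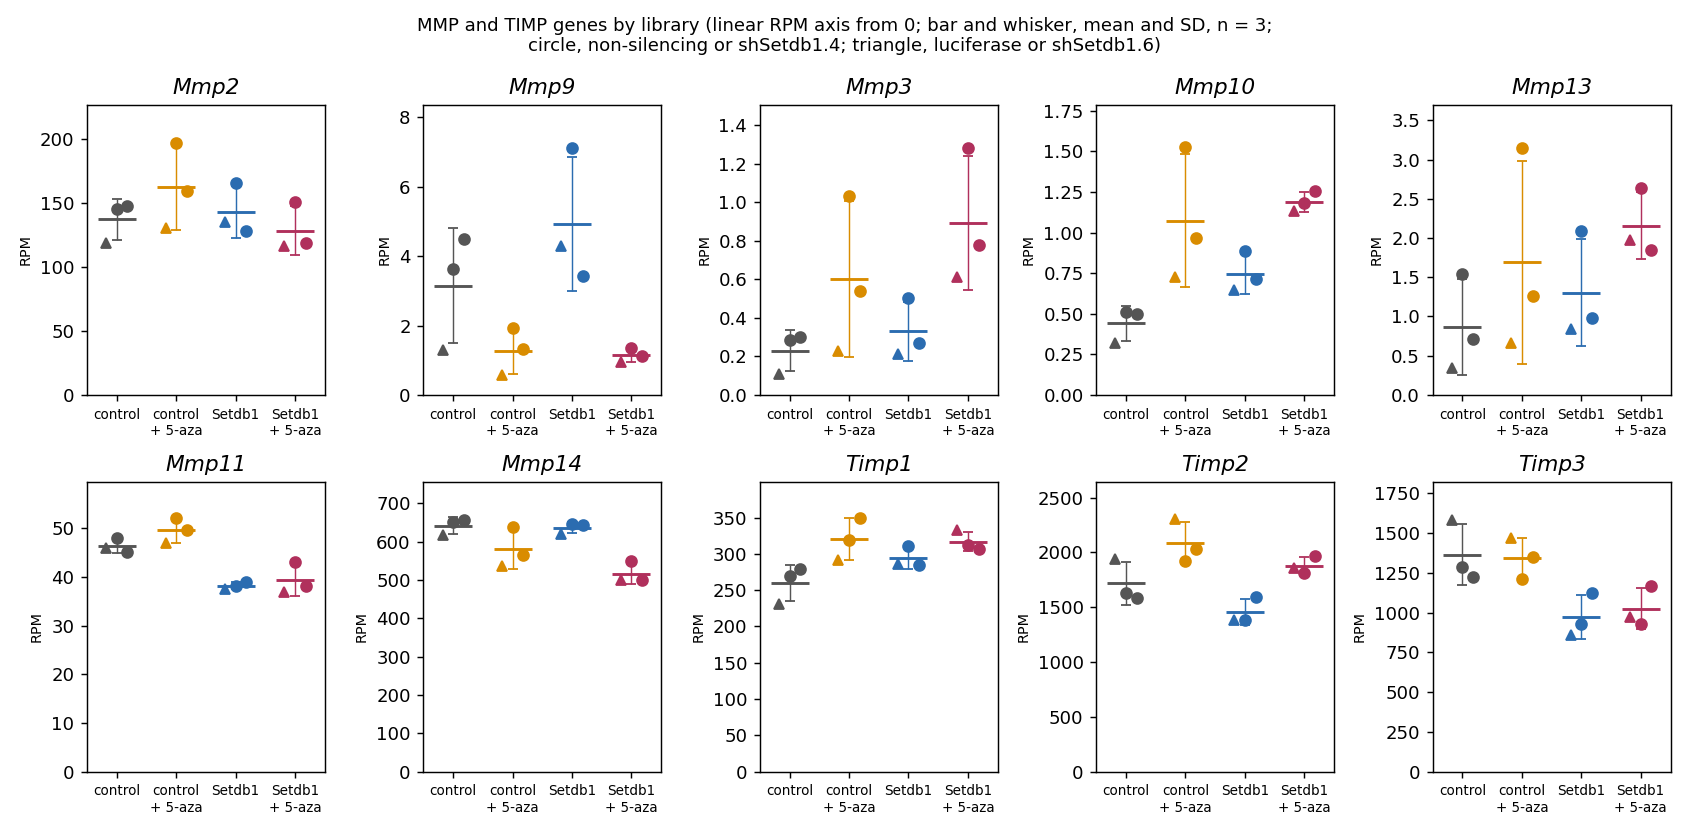
RPM of each of the 10 genes in the 12 hairpin libraries on linear axes that start at 0, with the mean as a bar and the SD (n = 3) as a whisker. Circles are non-silencing or shSetdb1.4 libraries and triangles luciferase or shSetdb1.6 libraries. The mean of Mmp9 is lowest in the 2 groups with 5-aza, Mmp10 is lowest with the control hairpin alone, and Mmp11 and Timp3 are lower in both Setdb1 groups.

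The inducible genes of the chromosome 9 cluster were low, and each was higher with 5-aza in every pair of libraries. Mmp10, stromelysin-2 (ENSMUSG00000047562, 7502352 to 7510238), was at 0.319, 0.513 and 0.496 RPM in replicates 1, A and B of control hairpin cells and at 0.726, 1.53 and 0.968 RPM with 5-aza. These groups did not overlap, and Mmp10 rose by 1.24 ± 0.26 on the log2 scale (limma adjusted p = 0.00793). With quantile normalisation of the libraries the change was 0.73 and was not called (limma adjusted p = 0.0725). With Setdb1 hairpins Mmp10 was at 0.644, 0.884 and 0.714 RPM without and 1.13, 1.18 and 1.25 RPM with 5-aza, again without overlap, at a log2 fold change of 0.68 ± 0.26 that was not called (limma adjusted p = 0.0717). In Setdb1 hairpin cells, libraries with the same label deviated together with and without 5-aza. A fit with the culture, taken as the hairpin and replicate label, as a block called this change (SE 0.18, limma adjusted p = 0.0123). The block covered all 12 libraries with a shared spread, and so also the control pairs, which did not all deviate together. Whether libraries with the same label came from the same culture was not tested. In that blocked fit 5 of the 9 genes were called for this contrast, in place of 3. Without 5-aza, the 3 Setdb1 hairpin libraries were also each above the 3 control libraries, at a log2 fold change of 0.77 ± 0.26 (limma adjusted p = 0.0775). This last change and that with 5-aza in Setdb1 hairpin cells were called when replicate 1 (limma adjusted p = 0.0475 and 0.0441) or replicate A (limma adjusted p = 0.0349 and 0.0321) of the control cells with 5-aza was left out, neither of which is a library of those contrasts. No library without 5-aza reached 1 RPM of Mmp10, and its 12 values rested on 15 to 71 reads.

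Mmp13, the main interstitial collagenase of the mouse (ENSMUSG00000050578, 7272514 to 7283333), varied widely between replicates. It was at 0.340, 1.54 and 0.712 RPM in replicates 1, A and B with control hairpins and at 0.663, 3.14 and 1.27 RPM with 5-aza. With Setdb1 hairpins it was at 0.835, 2.08 and 0.986 RPM, and with 5-aza at 1.98, 2.64 and 1.85 RPM. Replicate A was highest in all 4 groups, and the groups overlapped in every contrast. Its log2 fold change with 5-aza was 0.94 ± 0.59 in control cells (limma adjusted p = 0.285) and 0.83 ± 0.59 in Setdb1 hairpin cells (limma adjusted p = 0.305). With the culture as a block both changes were called (SE 0.17, limma adjusted p = 0.00222 in control and 0.00317 in Setdb1 hairpin cells). That fit rests on pairs that the labels do not state. Mmp13 is also made by hypertrophic chondrocytes and osteoblasts. The 8 cartilage and bone markers summed to 149 to 155 RPM with control and 187 to 216 RPM with Setdb1 hairpins, and with 5-aza to 145 to 148 and 178 to 201 RPM. Single markers moved in both directions. With 5-aza in Setdb1 hairpin cells, Acan and Col10a1 fell by 2.72 and 0.73 on the log2 scale (limma adjusted p = 0.0266 and 0.00805). Sox9 rose by 0.37 there (limma adjusted p = 0.0172). Acan, Col2a1 and Runx2 rose with Setdb1 hairpins without 5-aza, by 2.75, 0.60 and 0.26. Acan was at 0.586 ± 0.307 RPM with control hairpins, 3.51 ± 0.792 RPM with Setdb1 hairpins and 0.525 ± 0.049 RPM with Setdb1 hairpins and 5-aza. The SE of both its changes was 0.81. Of these groups only that with Setdb1 hairpins alone, the higher side of both changes, had a mean above 1 RPM. Bglap had 3 reads or fewer in each hairpin library, and the part of such cells in the Mmp13 values was not tested.

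Mmp3, stromelysin-1 (ENSMUSG00000043613, 7445822 to 7455972), was the lowest of the 10 genes, with 5 to 64 reads in a library. It was at 0.106, 0.283 and 0.302 RPM in replicates 1, A and B with control hairpins and at 0.228, 1.03 and 0.540 RPM with 5-aza. With Setdb1 hairpins it was at 0.215, 0.505 and 0.272 RPM, and with 5-aza at 0.614, 1.28 and 0.776 RPM. Among the 4 contrasts, the groups were apart only for 5-aza in Setdb1 hairpin cells. In a fit of all rows with no filter, the log2 fold change with 5-aza was 1.27 ± 0.57 in control cells (limma adjusted p = 0.233) and 1.46 ± 0.57 in Setdb1 hairpin cells (limma adjusted p = 0.127), and neither was called.

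Within pairs of libraries with the same hairpin and replicate label, Mmp3, Mmp10 and Mmp13 were each higher with 5-aza in 6 of 6. The differences were 0.84 to 1.87 for Mmp3, 0.42 to 1.58 for Mmp10 and 0.34 to 1.24 for Mmp13 on the log2 scale. Of all tested genes, 27.7% were higher and 12.1% lower with 5-aza in all 6 pairs. Mmp3 is not among those tested genes, and Mmp10 and Mmp13 passed the filter only or mostly through libraries with 5-aza. Their direction in the pairs is therefore a description beside these shares. Timp1 and Timp2 were also higher, and Mmp9 and Mmp14 lower, in 6 of 6 pairs. Mmp2, Mmp11 and Timp3 were mixed, with 3, 4 and 3 of 6 pairs higher.

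**Figure D4:**
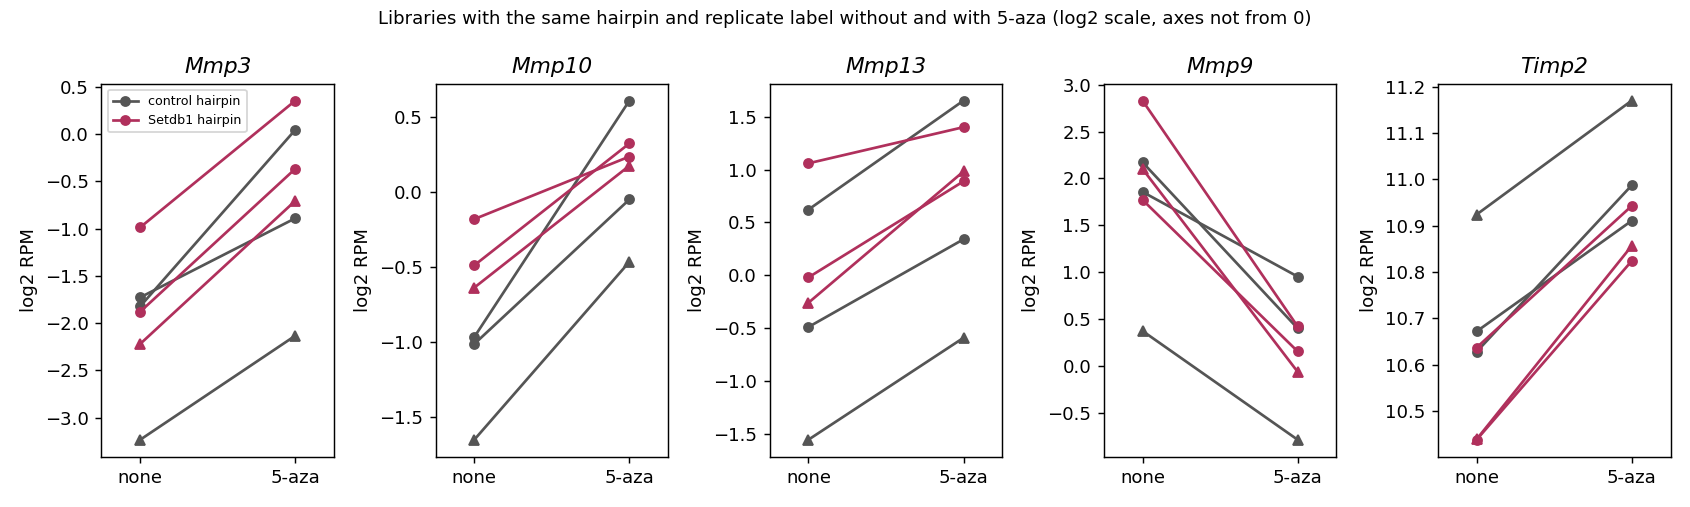
Log2 RPM of 5 genes in libraries of the same hairpin and replicate label without and with 5-aza, 1 line per pair, with control hairpins in grey, Setdb1 hairpins in red, and triangles for replicate 1. All 6 lines rise for Mmp3, Mmp10, Mmp13 and Timp2 and all 6 fall for Mmp9, and the axes do not start at 0.

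The remainder of the cluster was close to silent. It holds 10 metalloproteinase genes in 427 kb (7272514 to 7699585). Apart from Mmp13, Mmp3 and Mmp10, only Mmp12 had more than 3 reads in any hairpin library, with at most 18. The collagenases Mmp1a, Mmp1b and Mmp8, the matrilysin Mmp7, and Mmp20 and Mmp27 had 0 to 3 reads in each.

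Mmp11, stromelysin-3 (ENSMUSG00000000901, chromosome 10, 75923222 to 75932502, minus strand), was lower in every library with a Setdb1 hairpin than in every control library of the same treatment. It was at 46.0, 48.0 and 45.0 RPM in replicates 1, A and B with control hairpins and 37.5, 38.2 and 38.9 RPM with Setdb1 hairpins. The log2 fold change was -0.28 ± 0.06 (limma adjusted p = 0.00959). Under 5-aza the levels were 47.0, 52.2 and 49.6 RPM in control and 37.0, 43.1 and 38.2 RPM in Setdb1 hairpin cells, at -0.33 ± 0.06 (limma adjusted p = 0.00245). Both calls held without any 1 of the 12 libraries. With replicates A and B alone the first was not called, at -0.27 (limma adjusted p = 0.081). The change with 5-aza was not called with either hairpin, and its 95% intervals ran from -0.03 to 0.22 and from -0.08 to 0.17 on the log2 scale.

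Mmp14, the membrane-bound activator of pro-Mmp2 (ENSMUSG00000000957, chromosome 14, 54431604 to 54441258), fell with 5-aza in Setdb1 hairpin cells. It was at 619, 646 and 644 RPM in replicates 1, A and B with Setdb1 hairpins and at 500.2, 549 and 501 RPM with 5-aza. The groups did not overlap, and the log2 fold change was -0.30 ± 0.06 (limma adjusted p = 0.00458). In control hairpin cells it was at 616, 652 and 657 RPM without and 537, 638 and 566 RPM with 5-aza. Those groups overlapped, and the change of -0.15 ± 0.06 was not called (limma adjusted p = 0.107). It was called without replicate A of the control cells with 5-aza, at -0.22 (limma adjusted p = 0.0153). The difference between the 2 responses was -0.15 ± 0.09 (limma adjusted p = 0.794). Without 5-aza, Setdb1 and control hairpin cells differed by -0.01, with a 95% interval from -0.14 to 0.12 on the log2 scale. With 5-aza the difference was -0.16 (95% interval from -0.30 to -0.03), and it was not called (limma adjusted p = 0.0771). The latter was called without replicate 1 of the control cells with 5-aza (-0.22, limma adjusted p = 0.0254), without replicate A of the Setdb1 hairpin cells with 5-aza (-0.21, limma adjusted p = 0.0332) and with median centring (-0.23, limma adjusted p = 0.042).

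Among the inhibitors, Timp2, the partner of Mmp14 in the activation of pro-Mmp2 (ENSMUSG00000017466, chromosome 11, 118301069 to 118355740, minus strand), rose with 5-aza in both backgrounds. In Setdb1 hairpin cells it went from 1388, 1387 and 1592 RPM in replicates 1, A and B to 1854, 1813 and 1968 RPM, without overlap, at a log2 fold change of 0.37 ± 0.09 (limma adjusted p = 0.0106). In control cells it went from 1943, 1631 and 1582 RPM to 2304, 1925 and 2030 RPM, at 0.28 ± 0.09 (limma adjusted p = 0.0459). Here the groups overlapped, since the luciferase library without 5-aza lay above 1 treated library. The call in control cells was lost when any 1 of 8 libraries was left out, including replicates A and B of the control cells and replicates 1 and B of those with 5-aza, where the change ranged from 0.21 to 0.30 (limma adjusted p from 0.0881 to 0.176), and replicates 1 and A of the Setdb1 hairpin cells and 1 and B of those with 5-aza (limma adjusted p from 0.0529 to 0.0587). Setdb1 and control hairpin cells overlapped with and without 5-aza. BC100451, within the Timp2 interval on the same strand, shared 0 exon bases with it and was at 2.03 to 6.55 RPM.

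Timp1, the inducible inhibitor on the X chromosome (ENSMUSG00000001131, chromosome X, 20870166 to 20874735), rose with 5-aza in control hairpin cells. It was at 232, 270.1 and 279 RPM in replicates 1, A and B and at 292, 319.7 and 349 RPM with 5-aza, without overlap, at a log2 fold change of 0.30 ± 0.08 (limma adjusted p = 0.0186). Without the luciferase library the change was 0.22 (limma adjusted p = 0.0538), and without replicate B with 5-aza 0.24 (limma adjusted p = 0.0776). With each library centred on the median gene it was 0.26 (limma adjusted p = 0.051). With Setdb1 hairpins Timp1 was at 286, 311 and 285 RPM, each above the 3 control libraries, at 0.18 ± 0.08 (limma adjusted p = 0.149). With Setdb1 hairpins and 5-aza it was at 332, 313 and 306 RPM, which overlapped with every group except control hairpin cells without 5-aza. The difference between the 2 responses to 5-aza was -0.19 ± 0.11 (limma adjusted p = 0.794). Timp1 lies within Syn1, which runs on the opposite strand, shares 0 exon bases with it and was at 8.69 to 14.4 RPM. Total reads do not separate the active from the inactive X.

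Timp3, the inhibitor that stays bound to the matrix (ENSMUSG00000020044, chromosome 10, 86300372 to 86349506), was lower in Setdb1 hairpin cells. It was at 1584, 1288 and 1223 RPM in replicates 1, A and B with control hairpins and at 857, 931 and 1126 RPM with Setdb1 hairpins, without overlap, at a log2 fold change of -0.49 ± 0.12 (limma adjusted p = 0.0248). Under 5-aza the levels were 1468, 1211 and 1352 RPM in control and 975, 930.5 and 1169.7 RPM in Setdb1 hairpin cells, again without overlap, at -0.39 ± 0.12 (limma adjusted p = 0.0449). Both calls depended on single libraries. The first was lost without replicate 1 of the control cells (-0.38, limma adjusted p = 0.103), replicate A of the control cells (limma adjusted p = 0.0513), replicate 1 of the Setdb1 hairpin cells (-0.41, limma adjusted p = 0.117) or replicate A of those (limma adjusted p = 0.0686). The second was lost without any 1 of 6 libraries, namely replicates 1 and B of the control cells with 5-aza, 1 and A of the Setdb1 hairpin cells with 5-aza, and A of either hairpin without it, at -0.33 to -0.39 (limma adjusted p from 0.0533 to 0.15). With replicates A and B alone the changes were -0.29 (limma adjusted p = 0.29) and -0.29 (limma adjusted p = 0.16). The change with 5-aza was not called in either background, with 95% intervals from -0.29 to 0.25 and from -0.19 to 0.35. Timp3 lies within Syn3, which runs on the opposite strand and shares 1733 exon bases, 21.3% of those of Timp3. Syn3 was at 379 to 715 RPM and followed Timp3 across the 12 libraries with a root mean square difference of 0.02 on the log2 scale after each gene was centred. The library kit does not mark strand, so the reads of Timp3 and Syn3 in the shared bases cannot be told apart.

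Groups that did not overlap were counted apart from the test. With Setdb1 hairpins and no 5-aza they were 4 of the 9 tested genes (34.4% of all tested genes), with both treated 2 (34.7%), with 5-aza in control cells 2 (37.6%) and with 5-aza in Setdb1 hairpin cells 4 (43.4%).

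The genes whose profile over the 12 libraries was most like that of the 3 most variable genes were found by the root mean square difference of centred log2 RPM. For Mmp9 they were Palmd (0.41), the gap junction gene Gjb2 (0.46) and the cadherin Cdh10 (0.47), against an SD of 1.10 of Mmp9 itself. For Mmp13 they were Mmp10 (0.48), Gpr123 (0.52) and Spp1 (0.54), the osteopontin gene, and Spp1 ranged from 206 to 651 RPM. For Mmp10 they were Gpr123 (0.27), 2310042D19Rik (0.28) and the adenylate cyclase Adcy7 (0.29). The points share libraries and 4 groups, and the values are a description.

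Counts in the lists of other genes stand beside the shares of all tested genes. Those that rose and fell were 9.01% and 3.4% between hairpins without 5-aza, 14.5% and 5.37% between hairpins with it, 13.47% and 5.34% with 5-aza in control cells, and 21.4% and 7.51% with 5-aza in Setdb1 hairpin cells. The table holds 17 other metalloproteinase and Timp genes, of which 7 were tested. In 8 of the 17, each hairpin library had 3 reads or fewer, among them Timp4. In limma none was called for the Setdb1 hairpin without 5-aza (0 at an unadjusted p under 0.05) or with it (2 at that level), and voom called 0 in each. With 5-aza in control cells, Mmp23 rose from 15.0 ± 0.992 to 20.9 ± 2.39 RPM (log2 fold change 0.47 ± 0.12, limma adjusted p = 0.0173) and Mmp24, a membrane-type enzyme, from 11.3 ± 0.792 to 15.2 ± 2.12 RPM (0.41 ± 0.10, limma adjusted p = 0.0127). Mmp16, the membrane-type enzyme MT3-MMP, fell from 28.2 ± 2.34 to 19.6 ± 1.52 RPM (-0.52 ± 0.08, limma adjusted p = 0.0013). With 5-aza in Setdb1 hairpin cells Mmp24 rose again (0.50 ± 0.10, limma adjusted p = 0.0036) and Mmp16 fell again (-0.25 ± 0.08, limma adjusted p = 0.0356). Mmp19 at 21.4 to 36.7, Mmp17 at 15.9 to 22.2, Mmp28 at 4.78 to 9.49 and Mmp15 at 3.08 to 4.87 RPM were not called.

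Of the related ADAM and ADAMTS metalloproteinases, sheddases and proteoglycanases, 21 of 28 were tested. With Setdb1 hairpins 1 rose and 5 fell, and with 5-aza in both groups 3 rose and 7 fell. With 5-aza, 2 rose and 4 fell in control and 3 rose and 5 fell in Setdb1 hairpin cells. Adam8 rose in all 4 contrasts, from 3.43 ± 0.349 RPM with control to 17.0 ± 3.37 RPM with Setdb1 hairpins (log2 fold change 2.29 ± 0.13, limma adjusted p = 5.22e-07). Adamts5, an aggrecanase that Timp3 inhibits, fell in the same contrast from 304 ± 72.5 to 192 ± 26.7 RPM (-0.65 ± 0.15, limma adjusted p = 0.0178) and with 5-aza in control cells to 155 ± 24.3 RPM (-0.96 ± 0.15, limma adjusted p = 0.00159). Adamts12 fell with 5-aza by 0.72 and 0.88 on the log2 scale in the 2 backgrounds. The median log2 fold change of the 21 genes was -0.06, -0.12, -0.04 and -0.09 in the 4 contrasts.

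The plasminogen activator system, whose proteases cleave latent metalloproteinases, had 7 of 9 genes tested. In limma none was called for the hairpin (1 without and 3 with 5-aza at an unadjusted p under 0.05, and 0 by voom), and 0 fell with 5-aza, where 3 rose in control and 4 in Setdb1 hairpin cells. The inhibitor Serpinb2 rose from 1.79 ± 0.392 to 4.78 ± 1.42 RPM in control (log2 fold change 1.39 ± 0.39, limma adjusted p = 0.0283) and in Setdb1 hairpin cells from 2.55 ± 1.05 to 9.37 ± 4.13 RPM (1.88 ± 0.39, limma adjusted p = 0.00537). The inhibitor Serpine2 rose by 0.77 and 0.57 and the protease gene Plau, urokinase, by 0.28 and 0.49 on the log2 scale. The list's median log2 fold change was -0.05 and 0.02 for the hairpin and 0.28 and 0.38 for 5-aza.

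Genes that activate, inhibit or clear metalloproteinases were 14 tested of 15. In the 4 contrasts 1, 0, 2 and 5 rose and 1 fell in each, and the fall was that of Thbs1, the matrix protein thrombospondin-1. Thbs1 was at 17547 ± 523 RPM with control hairpins, 14680.3 ± 973 RPM with Setdb1 hairpins and 11713 ± 429 RPM with both treatments. The hyaluronan receptor Cd44, a docking site for Mmp9, rose with 5-aza in Setdb1 hairpin cells by 0.24 ± 0.04 (limma adjusted p = 0.00274), as did Lrp1, an endocytic receptor that clears metalloproteinases, by 0.28 ± 0.09 (limma adjusted p = 0.0412). The median log2 fold change of this list lay between -0.02 and 0.04.

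AP-1, ETS and related factors were all tested (19 of 19). In the 4 contrasts 1, 3, 1 and 1 rose and 2, 1, 2 and 3 fell. Fosl2, a subunit of AP-1, rose with 5-aza from 189 ± 11.8 to 211 ± 8.02 RPM in control (log2 fold change 0.16 ± 0.04, limma adjusted p = 0.0285) and in Setdb1 hairpin cells from 171 ± 2.23 to 209.9 ± 2.69 RPM (0.30 ± 0.04, limma adjusted p = 0.000993). Ets1 fell with 5-aza in both, by 0.19 and 0.13. Junb, also a subunit of AP-1, fell with 5-aza in control cells from 122 ± 7.69 to 106 ± 2.51 RPM (-0.20 ± 0.05, limma adjusted p = 0.0104). Between hairpins with 5-aza, Jun and Junb were higher in Setdb1 hairpin cells, by 0.19 and 0.18 (limma adjusted p = 0.0274 and 0.0171). Fos fell with Setdb1 hairpins from 18.3 ± 1.06 to 13.9 ± 2.06 RPM (-0.41 ± 0.10, limma adjusted p = 0.0257), and Runx2, a factor of Mmp13 in bone, rose from 36.6 ± 0.347 to 44.0 ± 2.24 RPM (0.26 ± 0.06, limma adjusted p = 0.0141).

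Cytokines and growth factors known to act on metalloproteinase genes were 11 tested of 16, with 1, 0, 2 and 2 that rose and 0, 2, 1 and 3 that fell. Fgf7 rose with 5-aza by 0.39 and 0.51 on the log2 scale and Pdgfa by 0.33 and 0.26, and Hbegf fell by 0.32 and 0.33. Il6 fell in Setdb1 against control hairpin cells with 5-aza, from 4.09 ± 0.351 to 2.97 ± 0.206 RPM (log2 fold change -0.46 ± 0.12, limma adjusted p = 0.0237). The median log2 fold change of the list lay between -0.05 and 0.09.

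Among the markers of other cells, the 6 epithelial markers summed to 2.74 to 3.27 RPM with control hairpins, 9.68 to 10.6 with Setdb1 hairpins, 9.26 to 11.2 with 5-aza and 21.0 to 23.6 RPM with both, most of it Krt18, and Epcam and Cdh1 had 3 reads or fewer in each library of the control groups. Epcam exceeded 3 reads in some library of both Setdb1 groups, and Cdh1 in some library with both treatments. Krt8 and Krt18, the 2 epithelial markers that were tested, rose in all 4 contrasts. Krt8 had 3 reads or fewer in each library with control hairpins alone. It was at 0.319 ± 0.125 RPM with Setdb1 hairpins, 0.861 ± 0.052 RPM with control hairpins and 5-aza and 2.30 ± 0.509 RPM with both treatments. Only the last of these means was above 1 RPM, so its passing of the filter was not independent of these calls. The 5 skeletal muscle markers summed to 12.3 to 15.7 RPM with control and 19.9 to 20.0 RPM with Setdb1 hairpins. With 5-aza they summed to 23.0 to 29.1 and 23.1 to 28.5 RPM. Myog was at 3 reads or fewer in all but 1 group. Des, the 1 of these that was tested, rose with Setdb1 hairpins without 5-aza (0.53) and with 5-aza in control (0.93) and Setdb1 hairpin cells (0.36). The 4 smooth muscle and myofibroblast markers summed to 9429 to 11420 RPM. Their part in the values of the 10 genes was not tested. Of the 9 fibroblast markers, 1 rose and 1 fell with 5-aza in Setdb1 hairpin cells. Col1a1, a collagen that Mmp13 and Mmp14 cut, fell from 9299 ± 1848 to 5638 ± 1485 RPM (log2 fold change -0.73 ± 0.23, limma adjusted p = 0.0337), and Vim, the intermediate filament vimentin, rose from 4512 ± 172 to 5177 ± 61.5 RPM (0.20 ± 0.05, limma adjusted p = 0.0152). Between hairpins with 5-aza, 1 fibroblast marker was called. Thy1 fell there from 1223 ± 186 to 890 ± 140 RPM, in groups that overlapped (-0.46 ± 0.13, limma adjusted p = 0.0277). The median log2 fold change of the 9 markers in that contrast was -0.37, against 0.05 over all tested genes.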

How the data were processed

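Poly(A) RNA libraries made with a TruSeq kit that does not mark strand were sequenced by the authors as single-end reads, and the processing notes in the labels name CASAVA 1.4 and mm10. The values deposited by the authors are log2 RPM, 1 column per library, and the aligner and counter of this table are not given in the sources used here. On the linear scale the deposited values below 1000 reads were whole multiples of 1 read in 100% of cases (within 0.02 read), and a gene with no read held 0.9 read. Coordinates are GRCm38, 1-based. Exon lengths and overlaps came from a GENCODE annotation of that build.

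The test was limma 3.58.1 (R 4.3.3) on log2 RPM, with lmFit, contrasts.fit and a trended eBayes, over the 12 hairpin libraries, with genes at 1 RPM or more in at least 3 libraries, 5 two-sided contrasts and Benjamini-Hochberg adjustment over 13134 genes. The script was tested on simulated data. Tables and figures used Python 3.11.15, numpy 2.4.6, pandas 2.3.3 and matplotlib 3.10.9. The labels do not say whether replicates were separate cultures or embryos, so p-values measure the spread between these libraries, which may be technical. A library treated with 5-aza for which no hairpin is named has no group in the labels and entered no test.

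Deviations from group means were correlated across genes between libraries with the same label, without and with 5-aza. The correlations were 0.472, 0.634 and 0.413 (replicates 1, A, B) in Setdb1 hairpin cells and 0.586, 0.149 and 0.0999 in control hairpin cells. Same-letter pairs across hairpins with 5-aza correlated at 0.484, 0.686 and -0.0197. Replicate 1 also carried another hairpin than A and B in every group. The check therefore cannot show that libraries with the same label came from the same culture, and the labels do not state it. The blocked fits cover all pairs, those of control cells included.

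The 10 genes and all gene lists were chosen with earlier results of these data known. Fold changes are given for all called genes of the 10, and otherwise where groups did not overlap or a comparison needs them. From each list the text names called genes among the 3 largest changes in each direction per contrast. Genes most like a member are named for the 3 with the largest SD.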

Additional observations from a re-analysis of the deposited data

Results flagged for a closer look

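Mmp2 was called for 5-aza in neither hairpin background (limma adjusted p = 0.319 and 0.46). With 5-aza it was higher in 3 of 3 control pairs and lower in 3 of 3 Setdb1 pairs, and the difference between the responses was -0.38 on the log2 scale (limma adjusted p = 0.794, 0.0506 with the culture as a block).

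The library treated with 5-aza without a named hairpin entered no comparison. Its library name has PGK in the place where the others have a hairpin, and PGK is also the name of an X chromosome of these cells. The study also used a PGK sample to find PGK variants, kept only where that sample lacked the reference allele. It does not say whether that sample is this library. The labels give no genotype for this library, so hairpin and genotype cannot be told apart. In it, 5 of the 10 genes were higher than in each of the 6 control hairpin libraries. Mmp2 was at 333.4 RPM (control range 118.6 to 197), Mmp3 at 1.82 RPM (0.106 to 1.03), Mmp9 at 4.56 RPM (0.580 to 4.51), Mmp13 at 5.59 RPM (0.340 to 3.14) and Mmp14 at 663 RPM (537 to 657). The Mmp3 and Mmp13 values rest on 37 and 114 reads. In the same library the 9 macrophage markers summed to 124.3 RPM, above the 16.3 RPM of the highest hairpin library. Their part in these values was not tested.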

How the results depend on the processing

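No direction reversed in the alternatives run for the called genes. Some changes that were not called and lay near 0 changed sign. Between hairpins without 5-aza, Mmp14 was at 0.0563 under quantile normalisation and -0.040 to 0.00899 without 1 library. With 5-aza, Mmp11 in Setdb1 hairpin cells was at -0.0144 with median centring and -0.0235 to 0.0869 without 1 library, and Timp3 in control cells at 0.0279 with replicates A and B alone and -0.0927 to 0.0938 without 1 library, and in Setdb1 hairpin cells at -0.0192 to 0.191. Mmp9, Mmp14 and Timp2 with 5-aza in Setdb1 hairpin cells and Mmp11 between hairpins with 5-aza kept their calls in each alternative that gave a value (22 for Mmp9, 23 for the others). The other calls changed with the processing, and the cause was not tested. With only replicates A and B, 0 of the 10 genes were called between hairpins without 5-aza and 1 with it, and over all genes 470 and 1403 for the 2 hairpin contrasts, 1532 and 2306 for 5-aza in control and Setdb1 hairpin cells and 8 for the interaction, in place of 1630, 2609, 2471, 3792 and 51. Between hairpins with 5-aza, 1 of the genes was called under quantile normalisation, with no filter and with no trend, in place of 2, and a fit of only the groups compared called 1548 genes in all. For 5-aza in control cells, 1 was called with median centring or with only the groups compared, in place of 3. A filter of 5 RPM left 19 genes for the interaction and gave no value for Mmp9, Mmp10 and Mmp13.

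Pairs within a hairpin and pairs across hairpins share only a label. With the culture as a replicate block, 7 of the genes were called for 5-aza in control cells (3902 of all genes), where Mmp9 (limma adjusted p = 0.00053), Mmp13 (0.00222), Mmp14 (0.0299) and Mmp2 (0.0132) were added to the 3 called without it, 5 in Setdb1 hairpin cells (5276 of all genes), and 169 of all genes for the interaction. With the replicate letter as a block, 4 were called between hairpins with 5-aza (Mmp2 and Mmp14 added, limma adjusted p = 0.00991 and 0.0154), Mmp10 was called without it (0.0195), and 2388 and 3751 of all genes without and with it. The block changed no other count of calls by over 1.5 times. Same-letter pairs across hairpins correlated at -0.470 to 0.190 without and -0.0197 to 0.686 with 5-aza.

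Leaving out 1 library gave 1 to 3, 1 to 3, 1 to 5, 3 to 4 and 0 to 0 of the 10 genes called in the 5 contrasts, and 721 to 1832, 1279 to 3428, 1260 to 2718, 2191 to 4193 and 29 to 43 of all genes. Count-based tests planned on recovered reads were not run, since the deposited unit is log2. A voom fit on those reads was chosen in their place after seeing the data, and no count of genes called changed by over 1.5 times. The interaction has no fit of only the groups compared, since it uses all 4. Depth limits Mmp3, Mmp10 and Mmp13, where 1 read is worth 0.017 to 0.0239 RPM.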

Other observations

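In the library treated with 5-aza without a named hairpin, Timp2 was at 1155 RPM and Timp3 at 458 RPM, below the lowest of the 12 hairpin libraries (1387 and 857 RPM). Mmp10 was at 1.32 RPM, Mmp11 at 46.0 RPM and Timp1 at 323 RPM, within the range of those libraries. Mmp12 was at 4.37 RPM, against 0.388 RPM in the highest hairpin library.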
